A study of Mus musculus with 12 samples.

Results

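The 8 genes described here encode 3 initiator caspases (Casp2, Casp8 and Casp9), the adaptor Fadd, the caspase-8 homologue and inhibitor Cflar, and 3 inhibitor of apoptosis proteins (Xiap, Birc2 and Birc3). They were picked by symbol from 55228 gene symbols, with earlier results of these data known, and all 8 were among the 15043 genes abundant enough to be tested. RNA had been sequenced from 12 libraries of cultured mouse regulatory T cells (Tregs), 3 in each of 4 groups. The EV control construct was used in a pair of groups, one deprived of IL-2 (named EV no IL-2) and one left in medium with it (named EV+IL-2). In the remaining pair, named 1G12t and 3A10t, Tregs expressed a CD25t tether construct that links the engineered cytokine 1G12 or 3A10 to the orthogonal IL-2 receptor, and these cells too were deprived of exogenous IL-2. All cells came from the lymph nodes of 16 NOD.Foxp3-GFP mice, pooled and sorted as GFP+CD25+, and the labels give no age. Transduction took place on day 2 of activation, IL-2 was washed away on day 4 (not from EV+IL-2 cells), and Thy1.1+ cells, which carry the construct, were sorted on day 9. The 3 replicates of a group were separate sorts and cultures of one pool, so that p-values measure the spread between cultures and not between animals.

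Apoptosis in T cells can start at the cell surface or at mitochondria. A death receptor such as Fas recruits the adaptor FADD, which brings together molecules of procaspase-8, whereas c-FLIP, the product of Cflar, takes the place of caspase-8 in that complex and limits its activation. Mitochondrial cytochrome c assembles APAF1 and caspase-9 into the apoptosome, and both routes converge on the executioner caspases. XIAP binds and blocks caspase-9 and executioner caspases, and the cellular IAPs encoded by Birc2 and Birc3 are ubiquitin ligases that act on RIPK1 in receptor complexes and keep the kinase NIK (Map3k14) low. Tregs depend on IL-2 for survival, and its withdrawal is known to engage the mitochondrial route.

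In the mouse genome (GRCm38, GENCODE M21), 2 pairs of these genes are neighbours. Cflar (chr1:58711508-58758884) and Casp8 (chr1:58795374-58847503) lie on the plus strand of chromosome 1, 36489 bases apart. Birc2 (chr9:7818227-7837064) and Birc3 (chr9:7848699-7873186), which are paralogs, lie on the minus strand of chromosome 9, 11634 bases apart, and reads that match both would have been divided between them by estimation. Casp9 is on chromosome 4 (141793612 to 141815976, plus strand), Casp2 on chromosome 6 (42264985 to 42282508, plus strand), Fadd on chromosome 7 (144577318 to 144582463, minus strand) and Xiap on chromosome X (42059679 to 42109656, plus strand). Fadd shares 4195 bases with the antisense gene Faddos, and whether reads were counted by strand is not given in the sources used here, so reads from the overlap cannot be told apart. Faddos itself was listed at group means of 0.874 to 0.987 TPM (transcript abundance corrected for length and library size), against 9.71 to 12.2 for Fadd. Casp9 shares 1015 bases with Cela2a and Ctrc on the other strand, each listed at a group mean of at most 0.901, and Casp8 shares 3841 bases with the unclassified transcript Gm37760 on its own strand, at group means of 2.09 to 3.75. Casp2 shares 78 bases with the small nucleolar RNA gene Gm25108 on its own strand.

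The 250 bases before the RefSeq start sites (GRCm38.p6) were available for all 8 genes. They are shown for the 2 genes that passed the test in any comparison, Casp8 and Fadd, and for Casp2, which had the largest difference between groups, with matches to the motifs searched in capitals and every sequence read 5′ to 3′ on the strand of its gene (plus for Casp8 and Casp2, minus for Fadd).
Casp8, chr1:58802252-58802501: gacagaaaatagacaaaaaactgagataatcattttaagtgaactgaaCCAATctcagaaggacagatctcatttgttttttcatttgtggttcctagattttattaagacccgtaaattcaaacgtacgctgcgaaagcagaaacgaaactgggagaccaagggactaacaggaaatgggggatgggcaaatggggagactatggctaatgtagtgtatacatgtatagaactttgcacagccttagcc
Fadd, chr7:144582442-144582691: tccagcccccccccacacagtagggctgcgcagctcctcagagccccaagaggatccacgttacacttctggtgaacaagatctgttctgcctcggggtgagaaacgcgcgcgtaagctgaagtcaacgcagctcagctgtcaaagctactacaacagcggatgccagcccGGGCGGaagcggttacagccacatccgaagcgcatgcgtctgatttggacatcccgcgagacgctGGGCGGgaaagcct
Casp2, chr6:42264735-42264984: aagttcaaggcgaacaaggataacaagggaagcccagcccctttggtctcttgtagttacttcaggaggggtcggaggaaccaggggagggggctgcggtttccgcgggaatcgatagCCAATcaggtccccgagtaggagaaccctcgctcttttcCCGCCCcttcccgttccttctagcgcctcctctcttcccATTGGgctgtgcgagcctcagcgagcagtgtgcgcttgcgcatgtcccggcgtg

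The Casp8 window was the poorest of the 3 in G and C, at 39.6% against 60.4% for both Fadd and Casp2. It lies inside the Casp8 gene as bounded by GENCODE, before an internal start site, whereas those of Fadd and Casp2 lie at the start of their genes. On either strand, none of the windows of the 8 genes held the STAT motif TTCNNNGAA, found in 7.02% of 32851 windows of the same length, the NF-kB motif (0.356%) or the interferon-stimulated response motif (2.98%). The GC box GGGCGG (32.7% of all windows) occurred in those of Casp2, Fadd, Casp9, Xiap and Birc2. Xiap and Birc2 have several windows each, and not every one of theirs held it. The CCAAT box (33.8%) occurred in those of Casp8 and Casp2, and neither motif in those of Cflar and Birc3. The last 3 motifs were added after the sequences had been seen, and the absence of a motif from these windows says nothing about binding elsewhere.

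All 8 transcripts were present in every library, and their order of abundance was much the same in the 4 groups. TPM are given per length of transcript and, below, after rescaling of each library by a factor of 0.846 to 1.08. Casp8 was the most abundant in every group, at 137 to 189 TPM as group means, and its lowest library lay above the highest library of the next gene in each group. Birc2 (58.9 to 77.4 TPM), Cflar (60.7 to 63.4 TPM) and Birc3 (53.8 to 62.5 TPM) formed the middle of the order. Cflar and Birc3 could not be ordered in any of the 3 groups in which they were neighbours, since their libraries overlapped, and in 3A10t Tregs neither could Cflar and Birc2 nor Birc2 and Birc3. Casp2 followed at 25.5 to 37.8 TPM, below those genes in every library of its own group. Casp9, Fadd and Xiap were the least abundant at 7.24 to 12.5 TPM. Among the genes tested, the mean over 12 libraries placed Casp8 at the 92.5th percentile and Xiap at the 41.9th percentile. Casp8 transcripts outnumbered those of Cflar, their inhibitor, in every library.

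**Figure D1:**
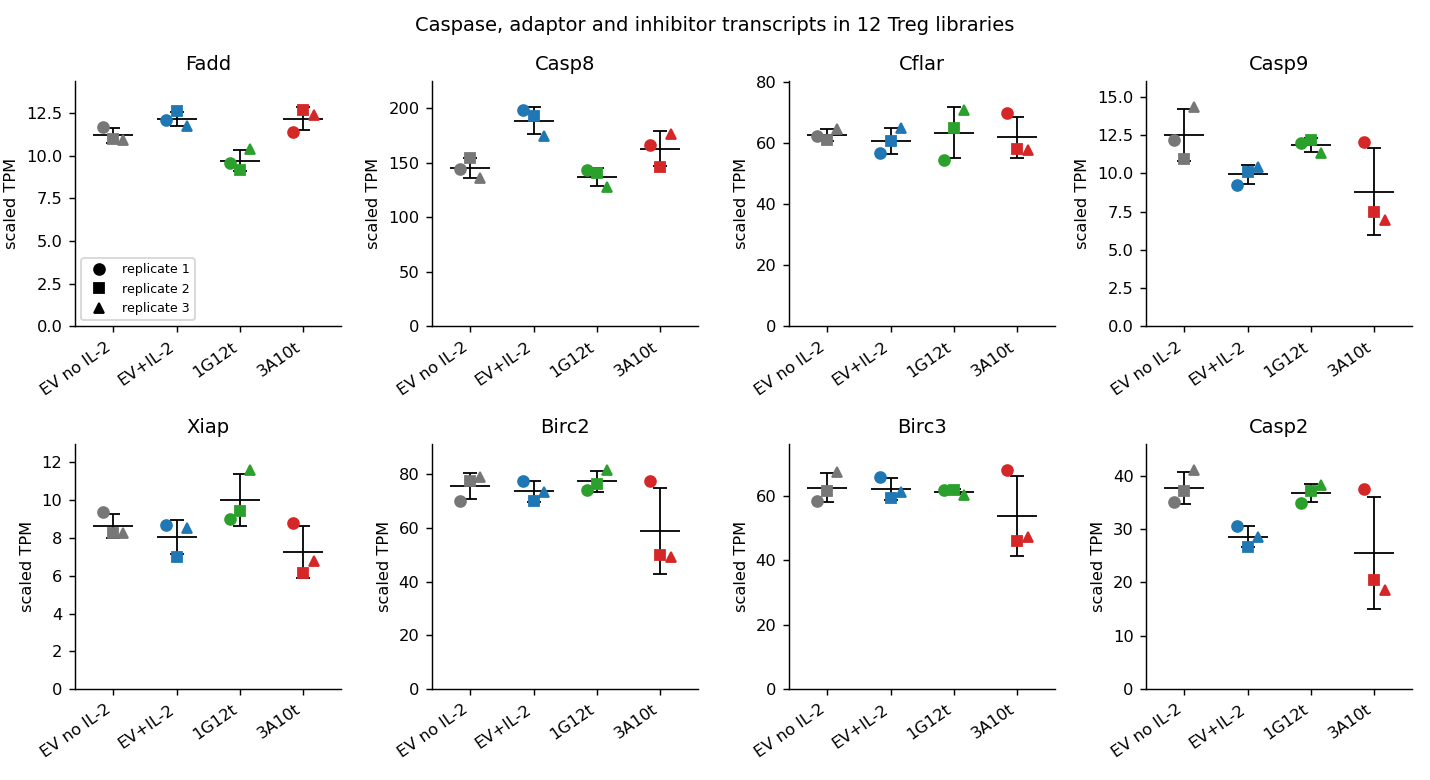
Scaled TPM (linear axes from 0) of the 8 genes in each of the 12 libraries, with the symbol giving the replicate and the bars the mean and SD of 3 libraries. Casp8 lies highest in EV+IL-2 Tregs (175 to 198 TPM). In 3A10t Tregs the circle of replicate 1 stands above the other libraries for Casp2, Casp9, Xiap, Birc2 and Birc3, and by less for Cflar.

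Marker genes and spread were checked for the series as a whole. The 6 Treg markers summed to 1612 to 2264 TPM per library, with no marker mean under 147, whereas those of B cells summed to at most 16.7, CD8 T cells 6.57, myeloid cells 3.52 and NK cells 0.525. The 4 erythroid markers summed to 14.6 to 24.3 in EV+IL-2 libraries and 1.07 to 3.44 in all others. In EV+IL-2 libraries Hba-a1 had a mean of 18.4 TPM. TPM keep no read totals, so that the depth of each library is unknown and the spread between libraries is the only error available. The EV+IL-2 libraries had 30393 to 36239 genes above 0 TPM, fewer than any other library (37930 to 43285). The 3A10t libraries differed most among themselves. Over the 8 genes, replicate 1 differed from replicates 2 and 3 by a median of 0.50 and 0.43 on the log2 scale, while replicates 2 and 3 differed from each other by 0.066, and the range within the other 3 groups was 0.047 to 0.17. Over all genes tested it was replicate 2 that lay farther from the others, by 0.35 from replicate 1 and 0.24 from replicate 3, with 0.18 between replicates 1 and 3 and 0.10 to 0.20 within the other groups. Replicate 2 also had the lowest scaling factor, 0.846. Counts of members called in comparisons with 3A10t are given also without replicate 1. That library was singled out by the values of these same genes, so the counts without it are fixed in part by the choice and support nothing.

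Casp8, the initiator of the receptor arm, was higher in EV+IL-2 Tregs than in EV no IL-2 Tregs. It was measured at 198, 193 and 175 TPM in EV+IL-2, against 144, 154 and 136 TPM in EV no IL-2. All EV+IL-2 libraries thus lay above all EV no IL-2 libraries. Casp8 rose, with a log2 fold change of 0.38 (SE 0.092, adjusted p = 0.020, limma). It was the single member called at an adjusted p under 0.05, 1 of 8 (12.5%), where 13.3% of all genes tested were called and 8.17% were called higher, so the share of members was close to that of all genes. Fold changes were fitted on log2(scaled TPM + 1), which understates those of genes with low TPM, and in bulk RNA fewer cells with a transcript and less RNA per cell cannot be told apart. The Casp8 call was lost with TPM as deposited (0.32, adjusted p = 0.081), with quantile normalization (0.31, adjusted p = 0.056) and when replicate 1 or 3 of EV no IL-2 or replicate 1 or 2 of EV+IL-2 was left out (0.33 to 0.37, adjusted p from 0.062 to 0.093). The erythroid marker sum and the number of genes above 0 TPM moved with this group as well, and their part in the result was not tested.

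Of the remaining members of the receptor arm, neither was called. Fadd, the adaptor, was 12.1, 12.6 and 11.8 TPM in EV+IL-2 and 11.7, 10.98 and 10.9 TPM in EV no IL-2, without overlap (log2 fold change 0.11, SE 0.077, adjusted p = 0.44, limma). Cflar, which opposes caspase-8, was 60.7 ± 4.10 TPM in EV+IL-2 against 62.7 ± 1.94 (SD, n = 3) in EV no IL-2, and the libraries overlapped (−0.049, SE 0.110). On the mitochondrial side, Casp9 was lower in all 3 EV+IL-2 libraries (9.27, 10.1 and 10.4 TPM) than in any EV no IL-2 library (12.2, 10.97 and 14.3 TPM), with a log2 fold change of −0.30 (SE 0.17, adjusted p = 0.31, limma). Xiap, Birc2 and Birc3 overlapped between the groups, with log2 fold changes of −0.091, −0.036 and −0.0071.

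Casp2, which responds to DNA damage and extra centrosomes, was also lower in every EV+IL-2 library. It was 30.6, 26.7 and 28.5 TPM in EV+IL-2 and 35.1, 37.1 and 41.1 TPM in EV no IL-2. The log2 fold change was −0.39 (SE 0.21, adjusted p = 0.27, limma). In this fit the error is shared by all 4 groups and includes the wide spread of Casp2 in 3A10t Tregs. With only the 6 libraries compared the same difference had an adjusted p of 0.027, where 21.3% of all genes were called. The 2 groups did not overlap for 4 of 8 members (50.0%), against 39.6% of all genes.

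**Figure D2:**
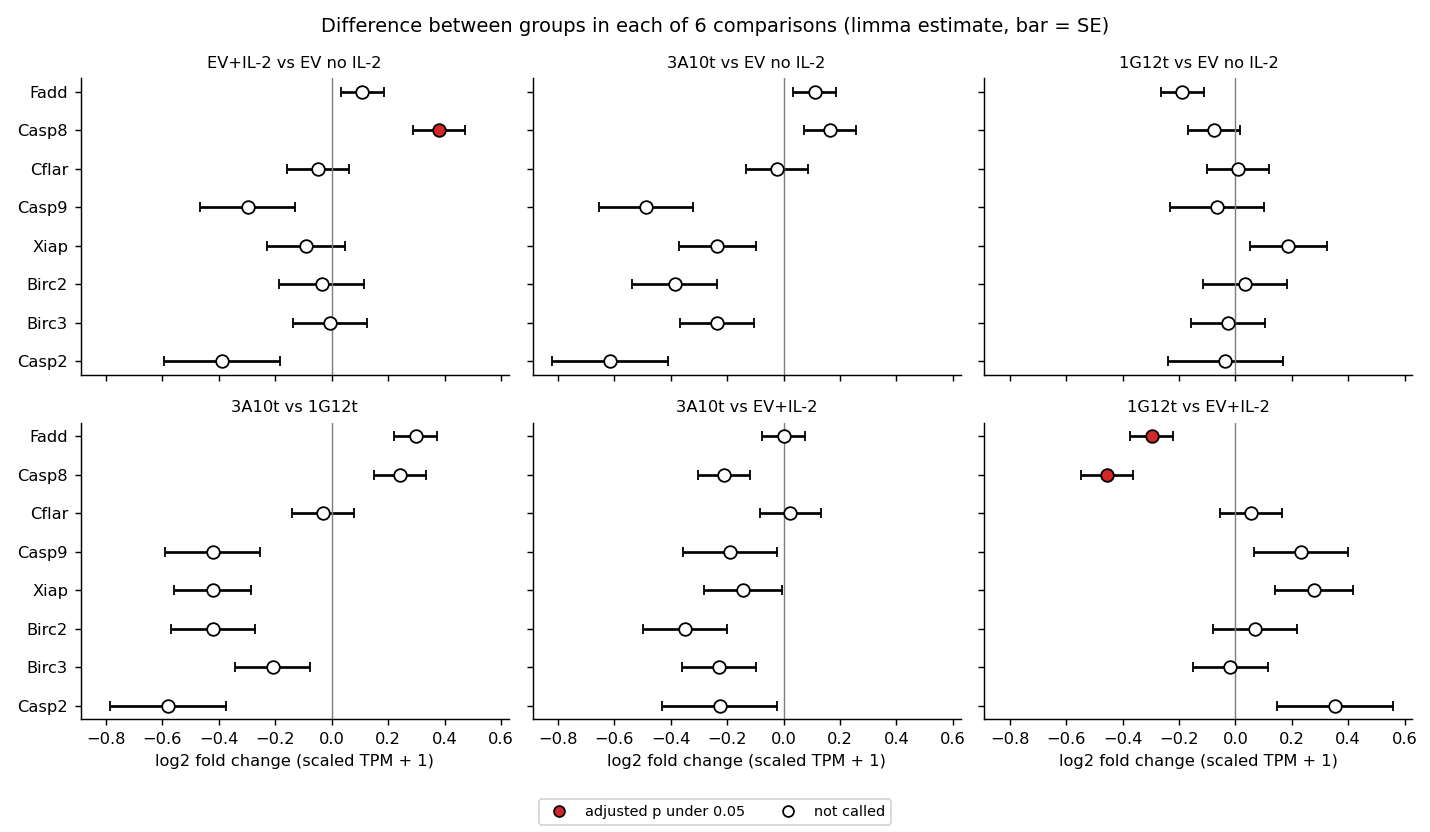
Log2 fold change on scaled TPM + 1 (points, bars give the SE of the limma fit) for the 8 genes in 6 comparisons of 3 against 3 libraries, with filled points for an adjusted p under 0.05. The 3 filled points are Casp8 in EV+IL-2 against EV no IL-2 (0.38) and Casp8 (−0.46) and Fadd (−0.30) in 1G12t against EV+IL-2.

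3A10t Tregs held lower levels of Casp2, Casp9, Birc2 and Birc3 than EV no IL-2 Tregs in replicates 2 and 3, but not in replicate 1. Casp2 was 37.6 TPM in replicate 1 and 20.4 and 18.5 TPM in replicates 2 and 3, against 35.1 to 41.1 TPM in EV no IL-2. Replicate 1 thus lay within the range of EV no IL-2, and the other libraries well under it. Casp9 was 12.05, 7.46 and 6.94 TPM against 10.97 to 14.3, and Birc2 was 77.5, 50.0 and 49.1 TPM against 70.2 to 79.1. Birc3 was 68.1, 46.0 and 47.3 TPM against 58.6 to 67.4, and Xiap was 8.79, 6.16 and 6.77 TPM against 8.26 to 9.36. These 5 genes are listed together because they share this division, and its share among all genes was not counted.

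With all 12 libraries, none of the 8 members was called in 3A10t against EV no IL-2 by limma, where 2.05% of all genes were called. At an unadjusted p under 0.05 there were 3 (Casp2, Casp9 and Birc2), or 37.5%, against 26.0% of all genes. Their log2 fold changes were −0.62 (SE 0.21, adjusted p = 0.11), −0.49 (SE 0.17, adjusted p = 0.12) and −0.39 (SE 0.15, adjusted p = 0.15). The median of the 8 members was −0.23, against 0.026 for all genes. Cflar was close to EV no IL-2 only as a group mean (−0.024, SE 0.110). Its replicate 1 (69.7 TPM) lay above the EV no IL-2 range of 60.9 to 64.7 TPM, and replicates 2 and 3 (58.0 and 57.9 TPM) below it. Cflar was thus divided by replicate as well, by less than the genes listed above. Fadd (0.11) and Casp8 (0.17) were the members with a fold change above 0 (2 of 8, against 52.9% of all genes). Libraries of the 2 groups overlapped for all 8 members, while 25.4% of all genes did not overlap.

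Leaving out any of the other 11 libraries gave 0 members called in this comparison. Without 3A10t replicate 1, 4 of 8 were called, all lower, where 23.2% of all genes were called and 15.3% were called lower. The log2 fold changes then were −0.92 for Casp2, −0.71 for Casp9, −0.60 for Birc2, −0.41 for Birc3 and −0.36 for Xiap, the last not called. These describe replicates 2 and 3, since replicate 1 was set aside for being higher in the same genes. Without replicate 2 or replicate 3 instead, Casp2 was at −0.50 and −0.43.

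**Figure D3:**
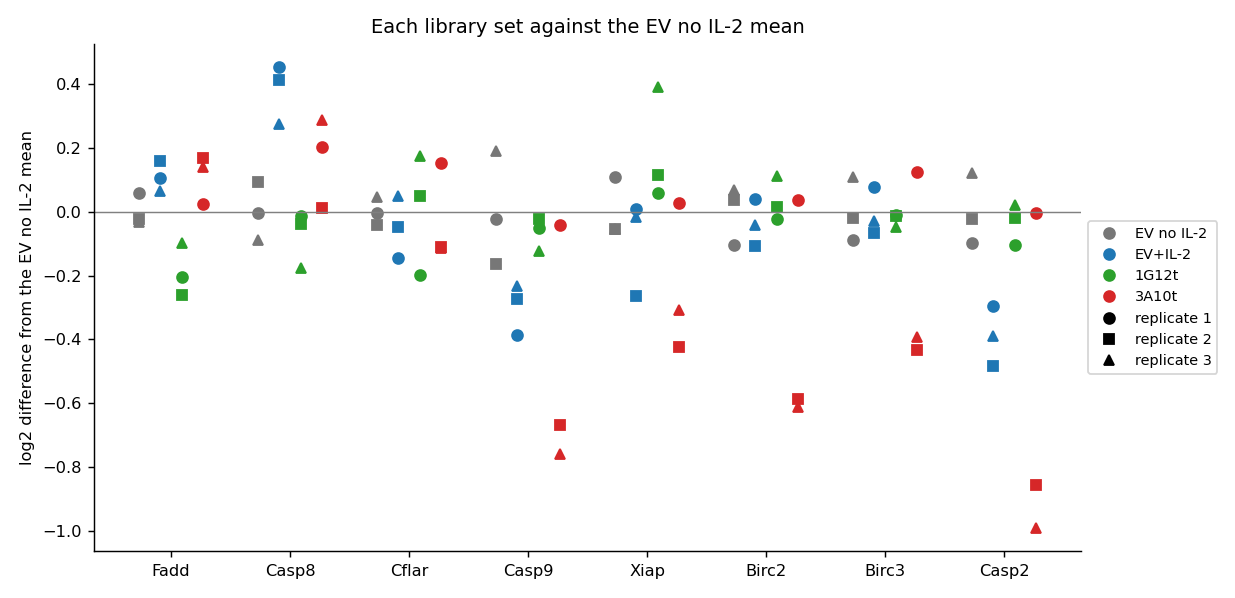
Log2 difference of each library from the EV no IL-2 mean for the 8 genes, on log2(scaled TPM + 1), with colour for the group and symbol for the replicate. 3A10t replicates 2 and 3 lie between −0.31 and −0.99 for Casp9, Xiap, Birc2, Birc3 and Casp2, while replicate 1 lies between −0.041 and 0.12 for the same genes.

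Long transcripts as a class were low in the same 3A10t libraries. When all tested genes were divided by their longest transcript into 5 classes of equal size, the median log2 difference from the EV no IL-2 mean in 3A10t replicate 2 was 0.29 in class 1 (the shortest), −0.25 in class 4 and −0.21 in class 5. In replicate 3 the same classes were at 0.10, −0.15 and −0.096, and in replicate 1 at 0, −0.010 and −0.035. The 2 libraries with low Casp2, Casp9, Xiap, Birc2 and Birc3 were thus also those in which long transcripts were low. The 8 genes lie in class 3 (Casp8 and Birc3), class 4 (Birc2, Casp2, Casp9 and Fadd) and class 5 (Cflar and Xiap), with longest transcripts of 2585 to 6834 bases. Not all members followed their class. Class 3 was at −0.056 in replicate 2 and 0.015 in replicate 3, where Birc3 was at −0.43 and −0.39 and Casp8 at 0.010 and 0.29. Fadd, in class 4, was at 0.17 and 0.14. The part of length in these differences was not tested. With a correction of each library for length, chosen after the data had been seen, and all 12 libraries, 0 members were called. In replicates 2 and 3 alone, the corrected log2 fold changes were −0.73 for Casp2, −0.49 for Casp9, −0.42 for Birc2, −0.31 for Birc3 and 0.37 for Fadd, given as a description.

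**Figure D4:**
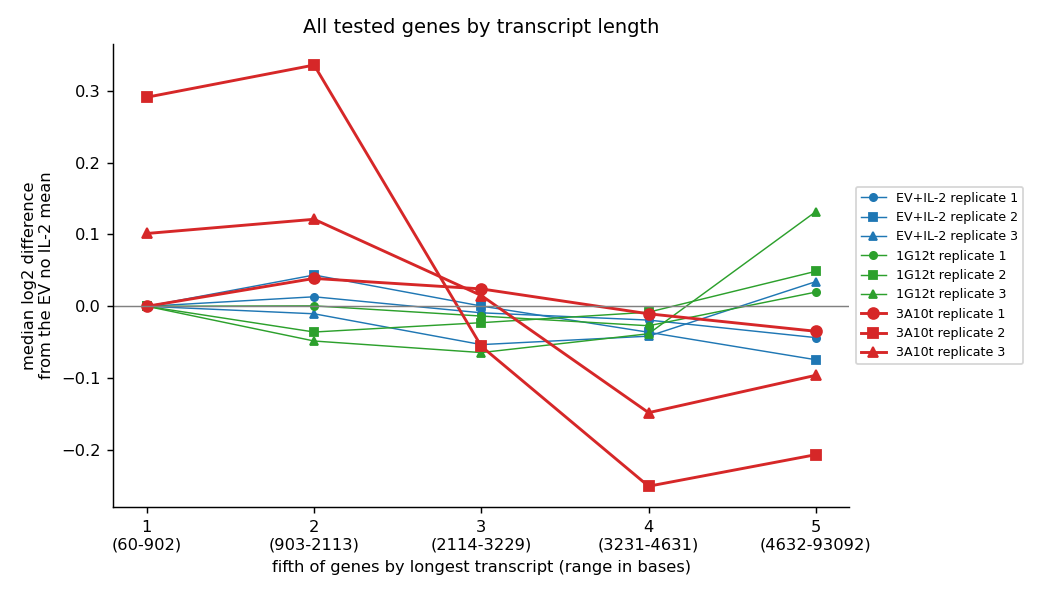
Median log2 difference from the EV no IL-2 mean over all tested genes in 5 length classes by longest transcript (range in bases under each), one line per library. 3A10t replicates 2 and 3 run from above 0 in short transcripts (0.29 and 0.10) to below 0 in long ones (−0.21 and −0.096), and replicate 1 stays between −0.035 and 0.039.

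None of the 8 genes passed the test between 1G12t and EV no IL-2 Tregs. Fadd came nearest, at 9.58, 9.18 and 10.4 TPM against 10.9 to 11.7 TPM, all 3 libraries below. Its log2 fold change was −0.19 (SE 0.077, unadjusted p = 0.033, adjusted p = 0.70, limma). No member was called, where 0.0199% of all genes were, and Fadd was the only member at an unadjusted p under 0.05 (12.5%, against 7.05% of all genes). Casp8 was 143, 141 and 128 TPM against 136 to 154 (−0.077, SE 0.092), and Xiap was 9.01, 9.41 and 11.6 TPM against 8.26 to 9.36 (0.19, SE 0.14). The other log2 fold changes were between −0.066 for Casp9 and 0.034 for Birc2. The libraries of the 2 groups overlapped for these 7 genes, and 16.5% of all genes did not overlap.

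1G12t Tregs had less Casp8 and Fadd than EV+IL-2 Tregs. Casp8, at 143, 141 and 128 TPM, was below all EV+IL-2 libraries at 175 to 198 TPM, with a log2 fold change of −0.46 (SE 0.092, adjusted p = 0.0061, limma). This call was kept under all 25 alternatives, with adjusted p from 0.0018 to 0.044. Fadd was 9.58, 9.18 and 10.4 TPM, below 11.8 to 12.6 TPM (−0.30, SE 0.077, adjusted p = 0.020). The Fadd call was lost with TPM as deposited (−0.20, adjusted p = 0.093), with the length correction and block together (−0.32, adjusted p = 0.061) and without EV+IL-2 replicate 1 or 2 or 1G12t replicate 1 or 2 (adjusted p from 0.057 to 0.077). Both members called were in the receptor arm, 2 of 8, where 20.6% of all genes were called and 10.9% were called lower. Libraries of the groups did not overlap for 5 of 8 members, against 43.2% of all genes. Casp2, Casp9 and Xiap lay above EV+IL-2 in every 1G12t library but were not called (0.35, 0.23 and 0.28). With only the 6 libraries compared Casp2 was called (0.35, adjusted p = 0.020), where 22.8% of all genes were. The EV+IL-2 libraries are the same as in the first comparison, and so are the EV no IL-2 libraries in the comparisons with each construct.

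Between the constructs, after rescaling, 3A10t libraries lay above 1G12t libraries for Fadd and Casp8 and below them for Xiap. Fadd was 11.4, 12.7 and 12.4 TPM in 3A10t against 9.18 to 10.4 in 1G12t (0.30, SE 0.077, adjusted p = 0.053, limma). Casp8 was 167, 146 and 177 TPM against 128 to 143 (0.24, SE 0.092, adjusted p = 0.12). Xiap was 6.16 to 8.79 TPM against 9.01 to 11.6 (−0.42, SE 0.14, adjusted p = 0.082). For these 3 genes the libraries of the constructs did not overlap (37.5% of members, against 26.2% of all genes). No member was called, where 4.27% of all genes were. At an unadjusted p under 0.05 there were 6 (75.0%), against 29.7% of all genes, the others being Casp2, Casp9 and Birc2. With quantile normalization Fadd was called (0.45, adjusted p = 0.036), where 3.19% of all genes were.

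Leaving out any library other than 3A10t replicate 1 gave 0 members called between the constructs. Without replicate 1, 6 of 8 were called, where 27.6% of all genes were (11.7% higher and 15.9% lower), with the same limit that the library was chosen on these genes. Fadd was then at 0.34, Casp2 at −0.88, Casp9 at −0.64, Birc2 at −0.63, Xiap at −0.55 and Birc3 at −0.39. Against EV+IL-2, 3A10t Tregs had no member called with all libraries (23.4% of all genes called), and at an unadjusted p under 0.05 there were 2 of 8, against 37.1% of all genes, Birc2 (−0.35) and Casp8 (−0.21). Without replicate 1 there were 4 (33.7% of all genes), Birc2 (−0.56), Casp2 (−0.53), Casp9 (−0.41) and Birc3 (−0.40), all lower in 3A10t, as were 19.9% of all genes, and leaving out any other library gave 0.

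Ratios of a caspase inhibitor to its caspase, and of Birc3 to its paralog Birc2, were taken within a library, where they do not depend on library scaling. They were not corrected for length, although long transcripts were low in 3A10t replicates 2 and 3. The longest transcripts were 6572 bases for Cflar against 2585 for Casp8, 6834 for Xiap against 3897 for Casp9, and 2909 for Birc3 against 3331 for Birc2. The ratio of Cflar to Casp8 was 0.323 ± 0.043 for EV+IL-2 Tregs, against 0.434 ± 0.041 (SD, n = 3) for EV no IL-2 Tregs. It was 0.381 ± 0.047 for 3A10t and 0.465 ± 0.087 for 1G12t. The 3 EV+IL-2 libraries (0.285 to 0.370) lay below the 3 EV no IL-2 libraries (0.394 to 0.476), a log2 difference of −0.43 (two-sided exact permutation p = 0.1, adjusted over 9 ratios and comparisons 0.45). With 3 against 3 libraries, 0.1 is the smallest p this test can give. The difference was −0.19 for 3A10t (exact p = 0.3) and 0.085 for 1G12t (exact p = 0.7). Xiap to Casp9 was 0.699 ± 0.11 in EV no IL-2 and 0.815 to 0.849 as a mean in the other groups, and all 3 comparisons overlapped (exact p from 0.2 to 0.4). Birc3 to Birc2 was 0.827 ± 0.029 in EV no IL-2 and 0.920 ± 0.043 in 3A10t, without overlap (0.15, exact p = 0.1, adjusted 0.45), although each gene was lower in 3A10t replicates 2 and 3 than in any EV no IL-2 library. In 3A10t replicates 1, 2 and 3 the ratio of Cflar to Casp8 was 0.418, 0.398 and 0.327, that of Xiap to Casp9 0.730, 0.826 and 0.976, and that of Birc3 to Birc2 0.878, 0.920 and 0.963.

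The wider pathway was followed in 46 further genes in 10 roles, of which 44 were tested. In EV+IL-2 against EV no IL-2, 11 of them were called and all 11 were higher, where 13.3% of all genes were called and 8.17% were called higher. With the replicate block 9 were called, and 13.1% of all genes. Birc5, which encodes survivin, an IAP family member that acts in chromosome segregation, rose from 7.55, 3.89 and 4.08 TPM to 92.8, 83.4 and 70.0 TPM (3.79, adjusted p = 1.7e-05, limma). Tnf, a death receptor ligand, rose from between 29.7 and 38.3 TPM to between 110 and 119 TPM (1.75, adjusted p = 8.9e-04). Diablo, which encodes the mitochondrial IAP antagonist SMAC, rose (0.64, adjusted p = 5.0e-04), as did the XIAP-binding factor Xaf1 (0.79, adjusted p = 0.033, but 0.058 with the replicate block). The apoptosome scaffold Apaf1 (0.16), the executioner Casp6 (−0.17), Ripk1 (0.17) and Map3k14 (−0.28, adjusted p = 0.12) were not called.

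Pidd1, which encodes an adaptor of the PIDDosome, the platform on which caspase-2 is activated, rose from 9.51, 9.77 and 11.1 TPM to 18.0, 18.2 and 16.9 TPM (0.75, adjusted p = 5.3e-04, limma). Casp2 itself was lower in the same libraries, as given above, and not called with all 12. By role, 3 of 6 death receptors and ligands, 3 of 8 adaptors and kinases, 1 of 2 apoptosome genes, 1 of 3 BIR proteins tested and 2 of 3 IAP antagonists were called higher. None of the inflammatory caspases and gasdermins, ubiquitin editors, genes of the non-canonical NF-kB arm or caspase substrates was called in either direction.

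**Figure D5:**
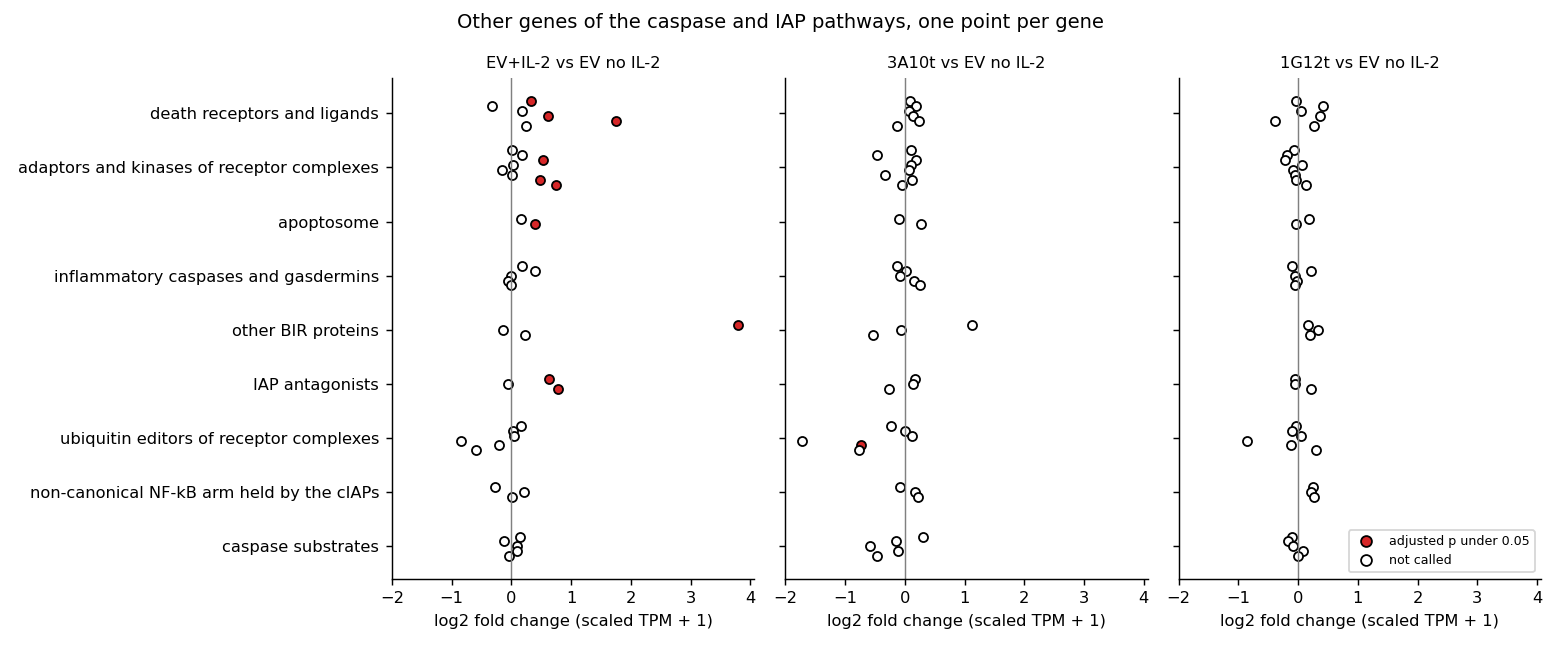
Log2 fold change on scaled TPM + 1 of other pathway genes tested, in 9 of the 10 roles, in each comparison with EV no IL-2, with filled points for an adjusted p under 0.05. The filled points for EV+IL-2 all lie above 0, 3A10t has 1 (Cyld, −0.72) and 1G12t none.

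In 3A10t against EV no IL-2, 1 of the 44 was called (2.27%, against 2.05% of all genes). Cyld, a deubiquitinase of receptor complexes, fell from 44.1, 54.6 and 53.5 TPM to 37.1, 27.7 and 26.7 TPM (−0.72, adjusted p = 0.033, limma). This call held in 14 of 25 alternatives (adjusted p up to 0.26) and was lost with no filter, only the 6 libraries compared or the length correction, and with 8 of the libraries left out in turn, 3A10t replicates 2 and 3 among them. Without 3A10t replicate 1, left out for its levels of the 8 genes, 14 were called (31.8%, against 23.2%), 6 higher and 8 lower, where 7.91% of all genes were higher and 15.3% lower. Birc5 (1.39), Ripk3 (0.33) and Dffa (0.39) were among those higher, and Tnfaip3 (−0.98), Parp1 (−0.88), Naip2 (−0.69), Ripk1 (−0.64) and Pak2 (−0.61) among those lower. Apaf1 (−0.16), Casp6 (0.32), Diablo (0.21) and Map3k14 (−0.022) were not called there. In 1G12t, 0 were called, where 0.0199% of all genes were, and the extremes were −0.85 and 0.42.

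Against 1G12t, 5 of the 44 were called in 3A10t Tregs (11.4%, against 4.27% of all genes). Dffa, which encodes the inhibitor of the caspase-activated nuclease, was higher (0.40, adjusted p = 0.042, limma). The ubiquitin editors Tnfaip3 (−1.06, adjusted p = 0.031) and Cyld (−0.61), the kinase and caspase substrate Pak2 (−0.47) and the BIR protein Naip2 (−0.74) were lower, and Naip2 has near-identical relatives that may share its reads. These calls held in 8 (Dffa) to 13 (Tnfaip3) of the alternatives, and 0 to 2 of the 44 were called when any library other than 3A10t replicate 1 was left out, against 13 without that one. Against EV+IL-2, 15 were called in 3A10t (34.1%, against 23.4%), 14 of them lower (13.0% of all genes), led by Birc5 (−2.67), Tnf (−1.52), Xaf1 (−1.05), Pidd1 (−0.80), Naip2 (−0.76) and Parp1 (−0.66), with Fasl, the ligand of Fas, the exception (0.50). There were 20 without 3A10t replicate 1, and 16 with the replicate block, which added Casp6 (0.41, adjusted p = 0.018). In 1G12t 13 were called (29.5%, against 20.6%), 9 of them lower (10.9% of all genes), among them Birc5 (−3.62), Tnf (−2.14), Ripk3 (−0.76) and Diablo (−0.69), and 4 higher (9.70%), among them Tnfaip3 (0.89), Fasl (0.74) and Map3k14 (0.53, adjusted p = 0.0067).

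The genes whose levels most resembled those of Casp8 and Fadd over the 12 libraries were sought among 9075 genes with a mean of at least 5 TPM, by the root mean square of the log2 difference after each gene was centred. For Casp8 they were Slbp (0.067), Hspa8 (0.070) and Tcp1 (0.070), against a median of 0.28 over all genes. Hspa8, a chaperone, was highest with IL-2 (1015 ± 56.7 TPM), followed by 3A10t (901 ± 99.8), EV no IL-2 (776 ± 31.0) and 1G12t (722 ± 52.1; SD, n = 3). For Fadd they were Acbd6 (0.030), Trp53 (0.050) and Mydgf (0.054), against a median of 0.24. Trp53, which encodes p53, was lowest in 1G12t (203 ± 3.69 TPM), then EV no IL-2 (229 ± 8.43), and lay at 248 ± 11.1 for 3A10t and 249 ± 9.51 for EV+IL-2. These likenesses are descriptions over libraries that share the 4 groups. The genes were picked for the smallest differences, so that they lie under the median by choice. A gene constant over all libraries would stand at 0.19 from Casp8 and 0.13 from Fadd.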

How the data were processed

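RNA from 12 Treg libraries had been measured by bulk RNA-seq with oligo-dT primed cDNA amplified for 15 cycles, transposase fragmentation, 9 cycles of index PCR and 50-bp paired reads. The deposited values are TPM, which the authors made with cutadapt 1.18, STAR 2.5.3 (mm10) and RSEM 1.3.0 with a GENCODE annotation, one column per library. The authors tested with DESeq2 1.26, and that test was not used here. 0 columns of other series were present. TPM hold no depth, so errors are the spread of 3 libraries.

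Here each library was divided by a median-of-ratios factor. The 15043 genes whose mean TPM reached 1 set the factors and were tested with limma 3.58.1 (R 4.3.3; lmFit, then eBayes with trend) after log2(x + 1) of the scaled TPM, all 12 libraries in one fit without a block, and called at a Benjamini-Hochberg adjusted p under 0.05 over all of them. Ratios were tested by exact permutation. Figures used Python 3.11.15 with matplotlib 3.10.9. Groups came from the sample labels, by which a replicate number marks one of 3 parts of the pool, sorted and activated separately and then split among the constructs. Over the 18 pairs of libraries with one number, deviations from the group means correlated at a mean of 0.041 (−0.11 to 0.15, 3 over 0.1), against −0.020 for different numbers. Deviations cancel within a group, so the second mean is nearly fixed by the first and is no separate comparison. The blocked fit is given where it changed a call.

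Named were the 8 members, Apaf1, Diablo, Casp6, Ripk1 and Map3k14, up to 6 of the 46 pathway genes with the largest fold change among those called in each comparison, and the 3 genes most like each called member. Members and lists were chosen with earlier results of these data known. Positions and longest transcripts were from GENCODE M21 (53462 symbols matched, and 98.5% of the genes tested had a length), and promoter windows from RefSeq. The length correction subtracted a lowess curve (span 0.3) of each library's deviation on length. The marker lists included Foxp3, Il2ra, Ctla4, Ikzf2, Cd4 and Cd3e (Treg), Cd79a, Cd79b and Ms4a1 (B cell), Lyz2, Csf1r, S100a8, S100a9 and Itgam (myeloid), Cd8a and Cd8b1 (CD8 T cell), Ncr1 and Klrb1c (NK cell) and Hba-a1, Hbb-bs and Alas2 (erythroid). The alternatives changed the pseudocount (0.1 or 5), the filter (none, or mean TPM from 5 up), the scaling (quantile normalization, or none), the libraries in the fit (the 6 of a comparison, or each left out), the block and the eBayes trend. The length correction and its combinations were added after seeing the data. The code was tested on simulated data. A few listed genes are not reported here.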

Additional observations from a re-analysis of the deposited data

Results flagged for a closer look

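After rescaling, Fadd and Casp8 each lay above the EV no IL-2 mean in all 3 libraries of 3A10t Tregs. Both lay below it in all 3 libraries of 1G12t Tregs. Casp8 in 3A10t replicate 2 and 1G12t replicates 1 and 2 was still within the range of the EV no IL-2 libraries. So was Fadd in 3A10t replicate 1. With TPM as deposited the pattern was lost, since 3A10t replicate 2 lay below every EV no IL-2 library for both genes. The difference between the constructs was 0.30 on the log2 scale for Fadd (SE 0.077, adjusted p = 0.053, limma) and 0.24 for Casp8 (SE 0.092, adjusted p = 0.12). Neither passed the threshold with all 12 libraries, and the 2 constructs share the EV no IL-2 libraries as their reference. Groups of 3 libraries are too small for a test of single outlying values.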

How the results depend on the processing

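Settings, alone or combined as stated, are given as counts of members or pathway genes called, with the value from all 12 libraries first. Members went in EV+IL-2 against EV no IL-2 from 1 to 0 with TPM as deposited or quantile normalization and to 2 with only the 6 libraries compared. They went from 0 to 1 with quantile normalization in 3A10t against 1G12t, and from 2 to 1 in 1G12t against EV+IL-2 with TPM as deposited or with the length correction and block. With the length correction and 3A10t replicate 1 left out, members came to 2 in EV+IL-2 against EV no IL-2, and in 3A10t to 5 against EV no IL-2, 5 against 1G12t and 3 against EV+IL-2, and to the same counts with the block. Pathway genes in 3A10t against EV no IL-2 went from 1 to 0 with no filter, only the 6 libraries or the length correction, to 2 with a stricter filter (mean TPM from 5 up) or TPM as deposited, and to 16 (17 with the block) with the length correction and replicate 1 left out. Against 1G12t they went from 5 to 0 with no filter or only the 6 libraries, to 2 without a trend, to 1 with the length correction, to 0 with it and the block, and to 13 (15 with the block) with replicate 1 left out as well. Against EV+IL-2 they went from 15 to 9 with only the 6 libraries and to 24 with the length correction and replicate 1 left out. The causes were not tested.

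Leaving out each library in turn gave 0 to 2 members and 7 to 13 pathway genes in EV+IL-2 against EV no IL-2, 0 to 4 and 0 to 14 in 3A10t against EV no IL-2, 0 to 6 and 0 to 13 in 3A10t against 1G12t, 0 to 4 and 8 to 20 in 3A10t against EV+IL-2, and 1 to 3 members in 1G12t against EV+IL-2. The highest of the counts in the 3 comparisons with 3A10t were those without its replicate 1, a library singled out by the members' own values, and the other libraries left at most 1 pathway gene against EV no IL-2 and 2 against 1G12t. The replicate block alone, with the pairing of libraries by sort, took pathway genes in EV+IL-2 from 11 to 9, losing Cycs (adjusted p = 0.079, limma) and Xaf1 (adjusted p = 0.058), and pathway genes in 3A10t against EV+IL-2 from 15 to 16, adding Casp6 (adjusted p = 0.018), and all genes called between the constructs from 642 to 987. It changed no other call of a member or pathway gene.

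Directions that turned were of differences near 0, none of them called. Birc3 turned in EV+IL-2 against EV no IL-2 with the length correction (0.011, and 0.010 without 3A10t replicate 1) and in 1G12t with TPM as deposited (0.018 against EV no IL-2, 0.087 against EV+IL-2) or quantile normalization (0.039 and 0.087). Casp2 turned in 1G12t against EV no IL-2 with the same settings (0.0073 and 0.0054), and Fadd in 3A10t with TPM as deposited (−0.028 against EV no IL-2, −0.079 against EV+IL-2). Cflar turned in 3A10t against EV no IL-2 with quantile normalization (0.020) and the length correction (0.10, then 0.058 without replicate 1 and 0.025 with the block too), against 1G12t with the length correction (0.18, then 0.13 and 0.10), against EV+IL-2 with TPM as deposited (−0.061), and in 1G12t with the length correction against EV no IL-2 (−0.078, and −0.076 without 3A10t replicate 1) and EV+IL-2 (−0.045 and −0.043). With 1 library left out, Cflar ranged from −0.094 to 0.000613 in EV+IL-2, −0.11 to 0.021 in 3A10t and −0.074 to 0.11 in 1G12t against EV no IL-2, −0.13 to 0.055 between the constructs, and −0.060 to 0.067 in 3A10t and −0.025 to 0.16 in 1G12t against EV+IL-2. Birc3 ranged from −0.054 to 0.044 in EV+IL-2 and −0.071 to 0.026 in 1G12t against EV no IL-2, and −0.054 to 0.016 in 1G12t against EV+IL-2. In 1G12t against EV no IL-2 Casp9 ranged from −0.15 to 0.025, Birc2 from −0.019 to 0.064 and Casp2 from −0.086 to 0.021, and Fadd in 3A10t against EV+IL-2 from −0.035 to 0.046. The depth of the libraries is unknown, and 3 libraries a group set the precision.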
